A study of Saccharomyces cerevisiae with 2 samples.

Results

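The 10 genes described here encode the 9 B-type and G1 cyclins of budding yeast that work with the kinase Cdc28 (CLN1, CLN2, CLN3, CLB1, CLB2, CLB3, CLB4, CLB5 and CLB6) and the inhibitor SIC1. They were chosen by name out of 6002 protein-coding genes, with earlier results of these data known but with no threshold on any measured value. The study mapped DNase I hotspots, stretches of chromatin that the nuclease cuts readily, in a strain with the temperature-sensitive Hsp90 allele G170D and in wild type (WT). Cultures of W303 background, a standard laboratory strain, grew in rich YPD medium at 30 °C and then spent 15 min in medium at 37 °C, a temperature that the mutant does not tolerate. There was 1 library and 1 hotspot list for G170D and the same for WT, so differences are between 2 libraries and have no replicate check, no test and no p-value. No library came from before the shift, so a difference already present at 30 °C cannot be told apart from one that followed it. The libraries came from bulk cultures, where an open site in fewer cells and a weaker opening in every cell cannot be told apart either. Hotspot lists carry no sequence, and the allele itself could not be checked in them.

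Cyclins switch the kinase Cdc28 on and choose its targets. Cln3 acts early in G1 and lets the factors SBF and MBF transcribe CLN1 and CLN2, which drive budding, and CLB5 and CLB6, which start DNA replication. Clb3 and Clb4 act in the spindle cycle, and Clb1 and Clb2, made late under Mcm1, Fkh2 and Ndd1, drive mitosis. Sic1 binds and blocks the Clb kinases until the G1 cyclins mark it for destruction, and the factor Swi5 makes it anew as cells leave mitosis. CLN1 and CLN2, CLB1 and CLB2, CLB3 and CLB4, and CLB5 and CLB6 are duplicate gene pairs. The sources used here do not say how the authors placed reads that match both copies, and the part of such reads in the values was not tested.

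The hotspots nearest the starts of the G1 cyclin genes were somewhat longer in G170D than in WT, by 56 bp at CLN1, 250 bp at CLN2 and 24 bp at CLN3. This was not particular to them, since those of CLB3 (by 37 bp) and CLB5 were longer too. Those upstream of CLB1, CLB2 and CLB4 were shorter, as was that of CLB6, by 39 bp. How common such changes in length were over all genes was not computed. The body of SIC1, largely open in WT, was almost without hotspot in G170D. Coverage is the number of bases inside a deposited hotspot, counted in the 500 and 1000 bp upstream of the coding start and in the coding body. A gene was called lower or higher in G170D when the covered share of a window differed by at least 20 percentage points. In the 500 bp window 2 of the 10 genes were called lower, CLB2 and CLB4, and 0 higher, where 19.6% of all coding genes were called lower and 9.6% higher. In the 1000 bp window 2 were called lower, CLB1 and CLB2, and 0 higher, against 19.2% and 10.8% of all genes. In the coding body 2 were called lower, CLB6 and SIC1, and 0 higher, against 15.3% and 9.43%. The counts of lower calls are thus near the background share, and the values below describe single genes. A hotspot reached the 500 bp window of 9 genes in both strains, where 72.4% of all genes had one in both, and SIC1 had none in either, as did 14.4% of all genes. No member had one in WT alone (9.58% of all genes) or in G170D alone (3.65%). The median coverage of the 500 bp window was 289 bp in G170D and 387 bp in WT over the 10 genes, and 286 and 317 bp over all genes. Gene by gene, however, 4 of the 10 were covered less in G170D, 4 more and 2 equally. The median of these differences was 0 points, as it was over all genes.

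**Figure D1:**
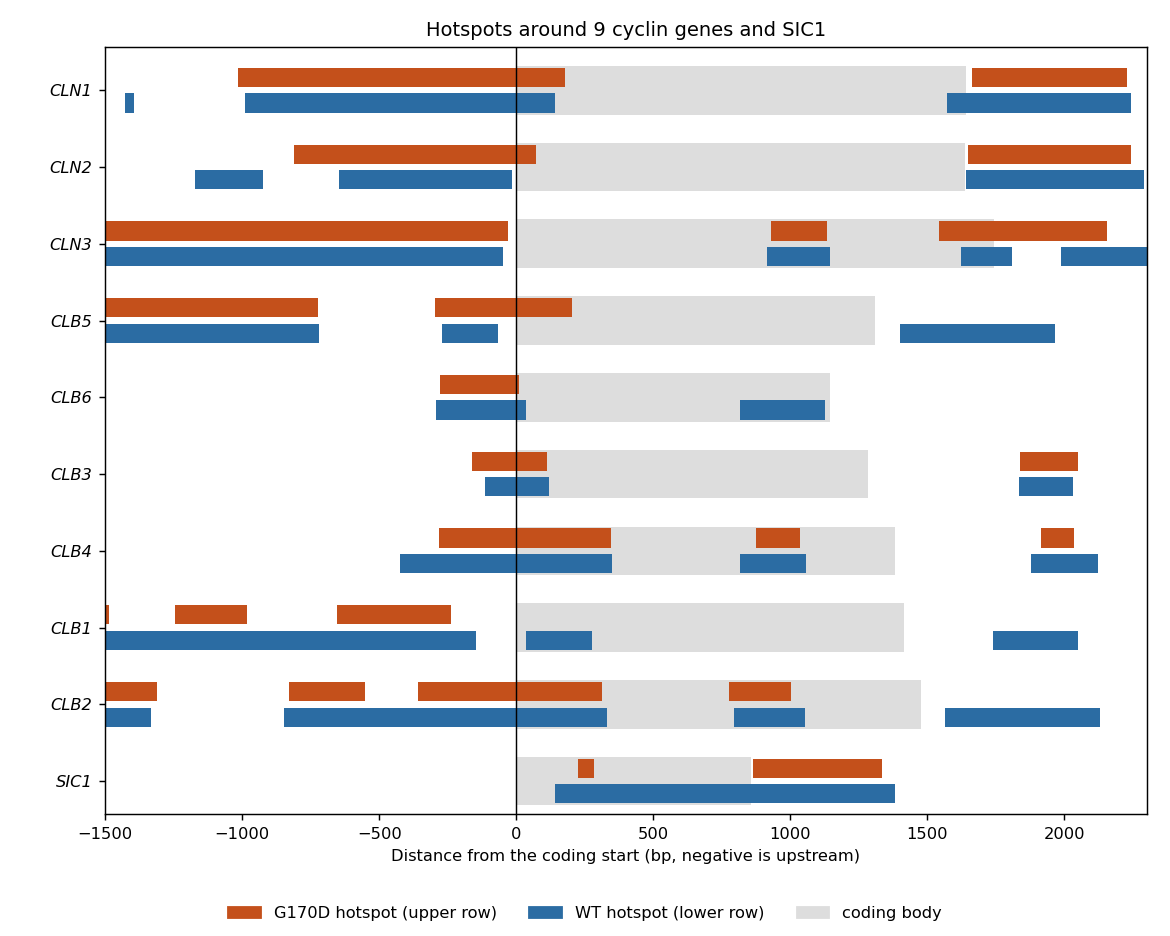
Hotspots of G170D (upper row of each gene) and WT (lower row) by distance in bp from the coding start of the 9 cyclin genes and SIC1, with the coding body in grey. Upstream hotspots reach 9 of the 10 genes in both strains, while SIC1 has none in the 1000 bp upstream and its body is covered over 57 bp in G170D and 713 bp in WT.

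The promoters of CLN1 and CLN2, which encode the cyclins that start budding, were open over long stretches in both strains. CLN1 (chromosome XIII, 662644 to 664284, sacCer3, plus strand) had its 500 bp window covered over 500 bp in G170D and 500 bp in WT, and its 1000 bp window over 1000 bp in G170D and 992 bp in WT. The hotspot there ran from 661630 to 662819 in G170D (1190 bp) and from 661652 to 662785 in WT (1134 bp), so that both ends lay slightly farther out in G170D. It continued into the gene for 176 bp in G170D and 142 bp in WT. A full 500 bp window in both strains was found at 20.1% of all coding genes. CLN2 (chromosome XVI, 64977 to 66614, minus strand) had 500 bp of its 500 bp window covered in G170D and 484 bp in WT, and 810 and 707 bp of its 1000 bp window. The CLN2 hotspot was longer in G170D, 880 bp against 630 bp in WT, and it crossed the coding start there by 70 bp, whereas the WT hotspot stopped 16 bp short of it. WT had a further hotspot of 251 bp (67538 to 67788) at the start of BBP1, the divergent gene that encodes a spindle pole body component, which met none in G170D. The whole space between CLN2 and BBP1 was thus covered over 810 bp in G170D and 817 bp in WT. BBP1 lies outside the naming rule and was named after its values were seen.

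CLN3, whose product starts the G1 programme, lay beside a very long open stretch in both strains. Its 500 bp window (gene on chromosome I, 65778 to 67520, minus strand) was covered over 471 bp in G170D and 450 bp in WT, and the 1000 bp window over 971 and 950 bp. The hotspot ran from 67550 to 72068 in G170D (4519 bp) and from 67571 to 72065 in WT (4495 bp), and so ended 29 bp before the coding start in G170D and 50 bp before it in WT. It held all 810 bp of CYC3, the gene of cytochrome c heme lyase, in both strains and reached the start of CDC19, the main pyruvate kinase gene, both named after their values were seen. By the authors' score it was number 65 of 5988 in the G170D list and number 227 of 7050 in the WT list, so it stood near the top of each. Inside the coding body an isolated hotspot of 205 bp in G170D and 228 bp in WT lay in the middle of the gene. At the end of the gene a G170D hotspot of 611 bp covered the whole 373 bp to the facing gene CDC24, the exchange factor of Cdc42, where WT hotspots covered 193 bp. In all 405 bp of the CLN3 body were covered in G170D and 347 bp in WT, a difference of 3.33 points.

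CLB5, the main S-phase cyclin, was more open around its start in G170D, and CLB6, its duplicate, was less open at its far end. At CLB5 (chromosome XVI, 773875 to 775182, minus strand) 297 bp of the 500 bp window were covered in G170D and 203 bp in WT, a difference of 18.8 points that stayed just under the 20 called. In G170D a 499 bp hotspot (774981 to 775479) held the coding start and 202 bp of the gene, and in WT a 203 bp hotspot (775250 to 775452) ended 67 bp before it, with 0 bp of the gene covered. The WT hotspot lay wholly inside the G170D one and scored low, at number 5315 of 7050, where the G170D hotspot was number 3178 of 5988. With only the highest-scoring 75% of each list, a limit that the WT hotspot just missed, CLB5 was called higher by 59.4 points. In the 250 bp nearest the start the difference was 26.8 points. A gain of body coverage where WT had none was found at 4.63% of all coding genes, CLN2 and CLB5 among them. Farther upstream a second hotspot began 724 bp from the start in G170D and 721 bp in WT, and was 1486 and 2112 bp long. A tRNA gene lay between these upstream hotspots, 583 bp from the coding start, and was covered over 0 bp in both.

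At CLB6 (chromosome VII, 705359 to 706501, minus strand) the promoter changed little. Its 500 bp window was covered over 280 bp in G170D and 292 bp in WT by hotspots of 290 and 329 bp that both reached just past the coding start. The coding body was covered over 10 bp in G170D and 345 bp in WT, a called difference of -29.3 points. Most of the WT coverage was a hotspot of 308 bp near the end of the gene (705376 to 705683), number 4619 of 7050 by score, which met none in G170D.

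CLB3 and CLB4, the cyclins of spindle assembly, each had an open stretch that spanned the coding start, a short one at CLB3 and a longer one at CLB4. CLB3 (chromosome IV, 176773 to 178056, plus strand) had 161 bp of the 500 bp window covered in G170D and 116 bp in WT, from 1 hotspot of 273 and 236 bp. This was the lowest upstream coverage among the 9 cyclins in both strains, and 112 bp of the body were covered in G170D and 120 bp in WT. The gene upstream, CMR1, a DNA-binding protein gene, ends 286 bp before the CLB3 start and fills the rest of the window. The CMR1 body had 0 bp covered in G170D and 244 bp in WT, none of it within the CLB3 window.

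At CLB4 (chromosome XII, 562008 to 563390, plus strand) the 500 bp window was covered over 281 bp in G170D and 423 bp in WT, the largest change of the family in that window at -28.4 points. The difference lay at the far end of the hotspot, which ran from 561727 to 562351 in G170D and from 561585 to 562357 in WT. That far end lay inside PNP1, the divergent purine nucleoside phosphorylase gene, whose body was covered over 6 bp in G170D and 148 bp in WT. The 275 bp between the coding starts were fully covered in both strains, so that with the window stopped at PNP1, or cut to 250 bp, the difference was 0 and the call was lost. A loss of at least 142 bp in the 500 bp window was found at 15.2% of all coding genes. The CLB4 body was covered over 506 bp in G170D and 589 bp in WT, in a stretch past the start and a narrow second hotspot of 162 and 239 bp. The 3 coding genes nearest to CLB4 over its 6 covered shares (3 windows, 2 libraries) were RSM23, YNL050C and PDR8, at Euclidean distances of 8.87, 12.2 and 13.8 points.

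**Figure D2:**
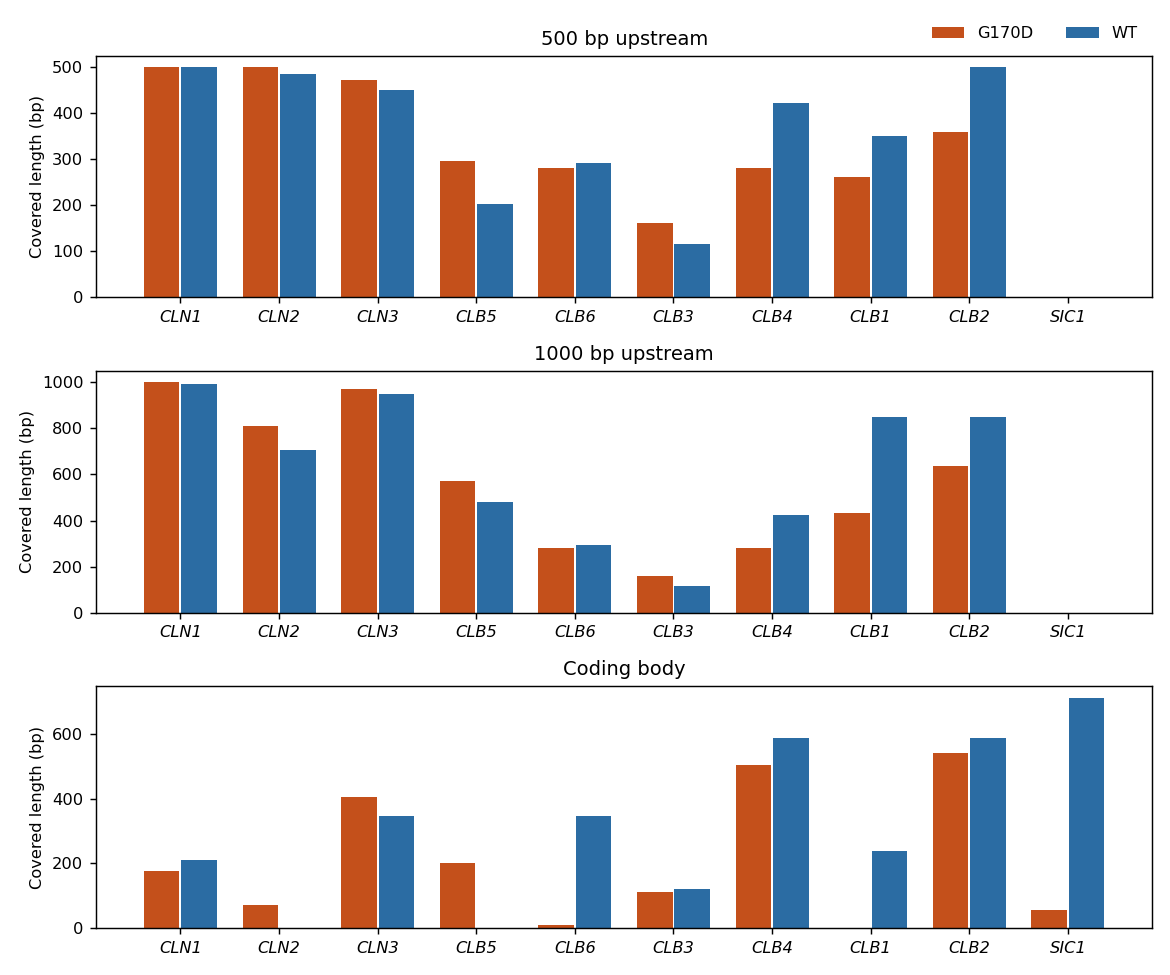
Length covered by hotspots, in bp, in the 500 bp and 1000 bp upstream of the coding start and in the coding body of each gene, with G170D left of WT and 1 library per strain. CLN1, CLN3 and CLB3 are even or slightly higher in G170D upstream, and CLB6 is slightly lower. CLN2 is slightly higher in the 500 bp window and by 103 bp in the 1000 bp window, where CLB5 is higher by 91 bp. CLB5 is also higher in the 500 bp window. CLB1, CLB2 and CLB4 are lower in G170D, and SIC1 has no upstream coverage and the largest body difference.

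The mitotic cyclin genes CLB1 and CLB2 each had 1 long hotspot that reached the 1000 bp window in WT. In G170D that hotspot was met by shorter ones, 3 at CLB1 and 2 at CLB2. How common such a break was over all genes was not computed. At CLB2 (chromosome XVI, 771653 to 773128, plus strand) the WT hotspot ran without a break from 770804 to 771982 (1179 bp), number 302 of 7050 by score. In G170D its place was taken by hotspots of 276 bp (770823 to 771098) and 674 bp (771293 to 771966), with the outer ends close to those in WT and a gap between them. The 500 bp window was covered over 360 bp in G170D and 500 bp in WT, and the 1000 bp window over 636 and 849 bp, called differences of -28.0 and -21.3 points. The 250 bp next to the start were fully covered in both strains, and the difference there was 0. Coverage crossed the start for 314 bp in G170D and 330 bp in WT, and a second hotspot inside the gene measured 227 and 259 bp.

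At CLB1 (chromosome VII, 703636 to 705051, plus strand) the difference was larger in the 1000 bp window and reached the side nearest the gene. The WT hotspot ran from 701758 to 703486 (1729 bp) and was met by 3 in G170D, of 301, 261 and 415 bp, which shared 977 bp with it. Coverage of the 1000 bp window was 432 bp in G170D and 851 bp in WT, a called difference of -41.9 points that 5.13% of all coding genes matched or exceeded. The 500 bp window was covered over 261 bp in G170D and 351 bp in WT, -18.0 points and just short of the 20 called, while in the 250 bp nearest the start the difference was -36.0 points. The hotspot ended 239 bp before the coding start in G170D and 149 bp before it in WT, so that CLB1 was the cyclin gene with the widest uncovered stretch before its start. The coding body held 0 covered bp in G170D and 239 bp in WT. This WT hotspot scored near the bottom of its list, at number 6697 of 7050, met none in G170D and was absent when both lists were held to their 5988 highest-scoring hotspots. CLB1 is the farthest of the 10 from its upstream neighbour, with 3849 bp to VOA1, a gene for vacuolar ATPase assembly, and 2 tRNA genes in that space lay 2588 and 2880 bp from the coding start. The nearer one was covered over all 96 bp in G170D and 0 bp in WT, and the farther one over all 82 bp in both, so coverage in this space was not lower in G170D throughout.

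SIC1 differed from the cyclins in having no listed hotspot in its upstream windows in either strain. At SIC1 (chromosome XII, 286820 to 287674, plus strand) both upstream windows were covered over 0 bp in G170D and 0 bp in WT. The 260 bp up to BOS1, a divergent gene for a membrane fusion SNARE, held no hotspot in either list. A 1000 bp window without any hotspot in either strain was found at 9.68% of all coding genes. The coding body was covered over 57 bp in G170D (6.67%) and 713 bp in WT (83.4%), a called difference of -76.7 points and the largest of the 10. A body loss of at least this many points was found at 46 of 6002 coding genes, or 0.766%, and a body called lower with no hotspot in either 500 bp window at 80, or 1.33%. The WT hotspot, number 163 of 7050 by score, began 142 bp inside the gene at 286962 and ran to 288201 (1240 bp), past the end of SIC1 and into EMP46, the next gene in the same direction and a membrane protein of early secretory transport. In G170D the stretch beyond the gene was also covered, by a hotspot of 470 bp from 287685 to 288154 that was number 433 of 5988. The 57 bp left inside SIC1 (287046 to 287102) were a separate hotspot at number 5929 of 5988, and with only the highest-scoring 75% of each list no coverage of the body was left in G170D and the difference was -83.4 points. The space between SIC1 and EMP46 was covered over 231 bp in G170D and 241 bp in WT, so the difference lay in the coding body of SIC1 and not in the space behind it. The 500 bp window of EMP46, which takes in the end of SIC1, was covered over 231 bp in G170D and 500 bp in WT.

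**Figure D3:**
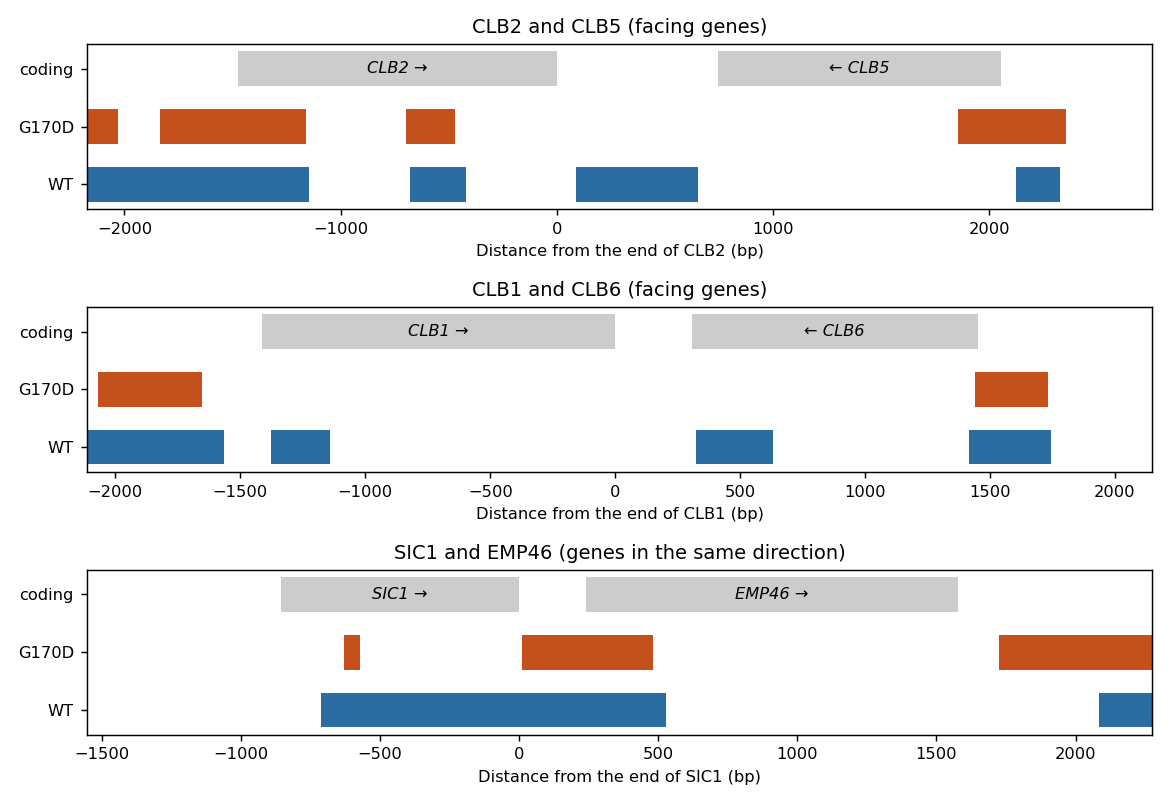
Hotspots of G170D and WT and coding genes by distance in bp from the end of CLB2, CLB1 and SIC1, with arrows for the direction of transcription. The space between CLB2 and CLB5 is covered over 0 bp in G170D and 564 bp in WT, a 308 bp hotspot at the end of CLB6 is found in WT alone, and at SIC1 the space before EMP46 is covered in both strains.

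The pairs CLB2 with CLB5 and CLB1 with CLB6 lie end to end and face each other, so that each mitotic cyclin gene shares the space behind it with an S-phase cyclin gene. Between CLB2 and CLB5 the 746 bp were covered over 0 bp in G170D and 564 bp in WT, by 1 WT hotspot (773218 to 773781) at number 2929 of 7050. Of all 1515 spaces between facing coding genes, 169 were covered in WT over any length with 0 bp in G170D (11.2%), and 70 in G170D with 0 bp in WT (4.62%). Of the 103 such spaces with at least 500 covered bp in WT, 2 had 0 bp in G170D. Between CLB1 and CLB6 the 307 bp had 0 covered bp in both strains, and the hotspot found in WT alone lay just inside the end of CLB6. Behind CLN1 the 467 bp to ROT1, a chaperone gene, were covered over 446 bp in G170D and 467 bp in WT. Behind CLN2 the 1116 bp to YPL257W were covered over 801 bp in G170D and 930 bp in WT.

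Taking both the 1000 bp upstream and the coding body, 17 hotspots in G170D and 19 in WT touched the 10 genes. All 17 in G170D overlapped a WT hotspot by at least 1 bp, where 9.77% of the whole G170D list did not. In WT 3 of the 19 met none in G170D, those at BBP1, in the CLB1 body and in the CLB6 body, where 26.6% of the whole WT list did not. Where G170D was open beyond WT, as at CLB5 and CLN2, a hotspot present in both lists was longer. At 100 bp upstream of the start the same 8 genes were covered in G170D and in WT, all but CLB1 and SIC1, where 58.9% and 64.4% of all genes were. At the first base of the coding body 7 were covered in G170D and 5 in WT, the difference being CLN2 and CLB5, where 49.8% and 55.0% of all genes were.

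**Figure D4:**
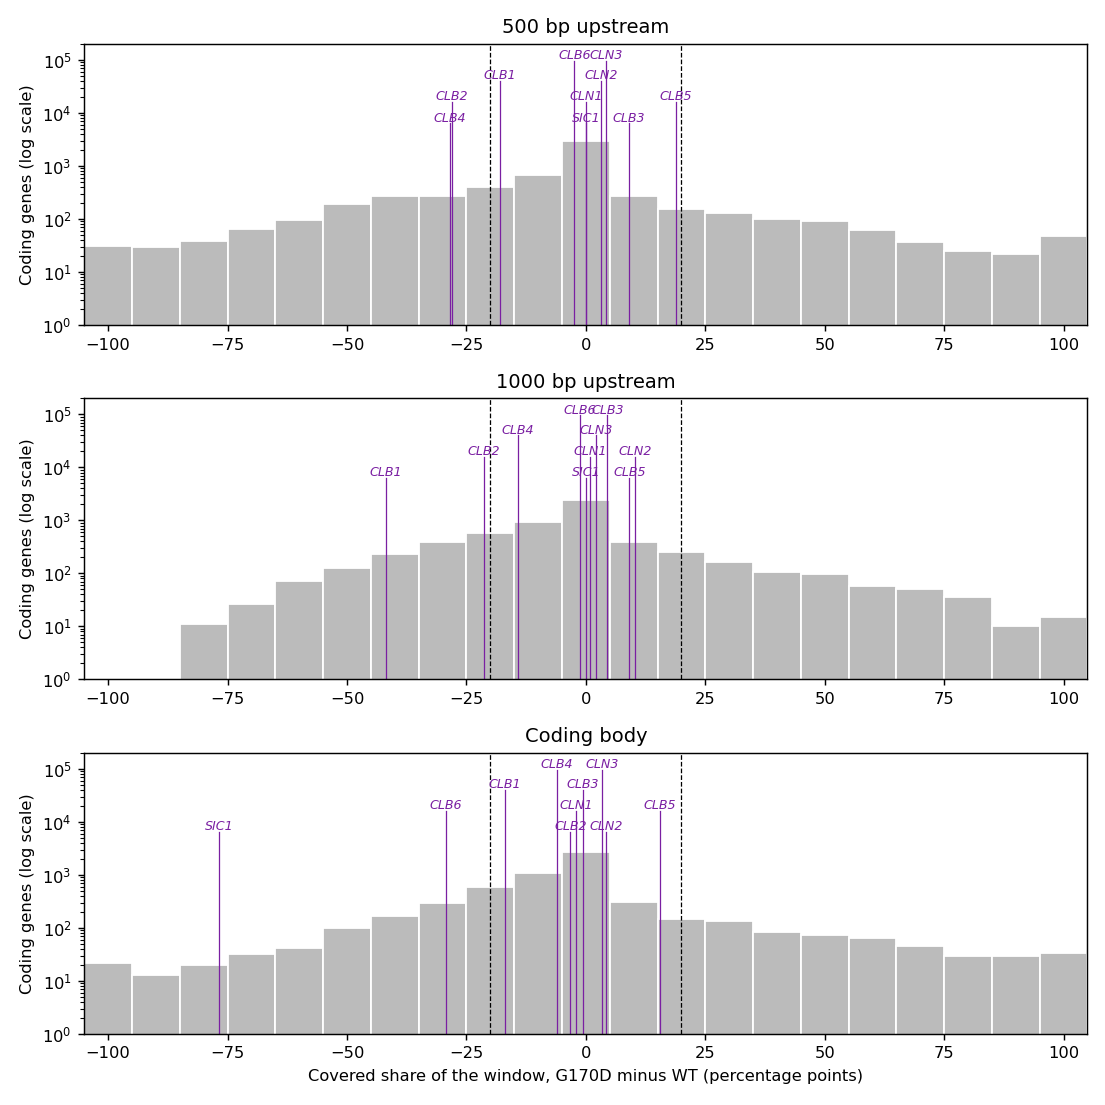
Difference in covered share between G170D and WT, in percentage points of the window, for 6002 coding genes (grey bars, log scale) with the 10 genes marked in purple and dashed lines at 20 points in either direction. In the coding body SIC1 lies at -76.7 points in the low tail, and in the 1000 bp window CLB1 lies at -41.9 points, while most of the family lies between the dashed lines.

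The genes around the cyclins in the cell cycle were taken as 5 lists of 55 genes, and 19 of them were called lower and 7 higher in the 500 bp window (34.5% and 12.7%, against 19.6% and 9.6% of all coding genes). The median difference was -5.4 points over the 55 genes and 0 over all genes. In the 1000 bp window 14 of the 55 were lower and 9 higher (25.5% and 16.4%, against 19.2% and 10.8% of all genes). In the coding body 6 were lower and 6 higher (10.9% each, against 15.3% and 9.43%), so the larger share of lower calls was not seen there. Among 10 genes of G1/S transcription 6 were called lower and 1 higher in the 500 bp window, with a median of -31.0 points. In the 1000 bp window 4 were lower and 3 higher, with 3604 bp covered in G170D and 3384 bp in WT over the 10 genes, and in the coding body 0 were lower and 2 higher. The lower ones included SWI6 (0 bp in G170D, 312 bp in WT), MBP1 (0 and 287 bp) and SWI4 (219 and 500 bp), which encode the subunits of SBF and MBF, and STB1 (0 and 182 bp), whose product binds Swi6. The STB1 body went the other way, with 532 bp covered in G170D and 59 bp in WT. NRM1, which encodes the MBF corepressor, was higher (489 bp in G170D, 0 bp in WT). Of 10 genes for Cdc28 and its direct regulators 3 were lower, FAR1, CDC37 and CAK1, and CKS1, the Cdc28 subunit gene, was higher (281 and 0 bp), with a median of -9.2 points. CDC28 itself had 0 covered bp in that window in both strains. In the 1000 bp window 4 of these 10 genes were lower and 1 higher, and in the coding body 1 was lower and 1 higher.

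Of 15 genes that mark cyclins and Sic1 for destruction 5 were lower, among them GRR1, which targets the G1 cyclins (0 bp in G170D, 307 bp in WT), APC11, CDH1 and HRT1, and 2 were higher, SKP1 (500 and 222 bp) and CDC4, which targets Sic1 (229 and 0 bp). The median of these 15 was 0. Over all coding genes 19.6% were lower and 9.6% higher in this 500 bp window. The shares were 19.2% and 10.8% in the 1000 bp window and 15.3% and 9.43% in the coding body. In the 1000 bp window 4 of the 15 were lower and 2 higher, and in the coding body 2 were lower and 3 higher. The HRT1 body went the other way, with 234 bp covered in G170D and 56 bp in WT. Of 9 genes of mitotic and M/G1 transcription 2 were lower, NDD1 (0 and 270 bp) and FKH2 (270 and 500 bp), which encode the factors behind CLB2, and 2 higher, YOX1 and YHP1, with a median of -3.2 points. SWI5, the activator of SIC1, was covered over 379 bp in G170D and 441 bp in WT. In the 1000 bp window 2 of the 9 were lower and 2 higher, and in the coding body 0 were called either way. Of 11 genes for the kinase Pho85 and its cyclins 3 were lower in the 500 bp window, PCL10, PCL2 and PHO85, and 1 higher, the G1 cyclin gene PCL1 (500 bp in G170D, 14 bp in WT), with a median of -5.4 points. In the 1000 bp window 0 of the 11 were lower and 1 higher, and in the coding body 3 were lower and 0 higher. The lists were chosen with earlier results of these data known and have no test.

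Hotspots averaged 556 bp in the G170D list and 543 bp in the WT list, with medians of 326 and 329 bp. The lists covered 3.33 and 3.83 Mb in all with 5988 and 7050 hotspots. The depth behind each list is unknown, since read numbers are not among the sources used here. A deeper or more strongly digested library can give more and longer hotspots, and the part of this in the differences at these genes was not tested. Holding each list to its 5988 highest-scoring hotspots shortened only the WT list. The WT hotspots behind the calls at CLB1, CLB2, CLB4, CLB6 and SIC1 were numbers 1596, 302, 2035, 4619 and 163, within that limit. These calls could therefore not change in that setting, which cannot decide on depth.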

How the data were processed

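DNase-seq was done on 1 G170D culture and 1 WT culture, grouped by their source labels. Bowtie 1.0.0, FastQC 0.10.1 and the genome build sacCer3 appear in the submitters' processing notes, without settings. The authors deposited 1 hotspot list per library with a start, an end and a score per hotspot. No source used here names the hotspot caller or says what the score means, so this deposited score served only to rank hotspots within a list. Starts were read as counted from 0, as in BED files, and positions are printed counting from 1.

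Genes came from RefSeq R64 (sacCer3), 6002 coding genes on 16 chromosomes, with strand from the W or C of the systematic name. Covered bases were counted per window with Python 3.11.15, numpy 2.4.6 and pandas 2.3.3, and the count was checked on simulated lists. The members and lists were chosen with earlier results of these data known. Named genes followed a rule: all members, neighbours that share a member's upstream window or the space behind it, and up to 4 called genes per list and direction. CDC28, SWI5, VOA1 and the genes marked in the text were named outside that rule. Alternatives covered score, list length, joining, narrow hotspots, window extent and call size. A planned motif search was not run, because no sequence was used here.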

Additional observations from a re-analysis of the deposited data

How the results depend on the processing

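The counts of members called, or with a hotspot, were recomputed with only the highest-scoring 75% of each list, with lists of equal length, with hotspots up to 100 bp apart joined and without hotspots under 50 bp. Where they apply, upstream windows stopped at the nearest coding gene, a 250 bp in place of the 500 bp window, and calls at 10 and 40 points were used too. Counts over the 55 genes of the cell cycle lists, spaces between genes and shared hotspots were not recomputed. Of 60 recomputed counts 48 stayed within 1.5 times the reported value, and none of the 150 recomputed differences of single genes reversed a called value, while 18 moved. Many of these could not move. No hotspot in the member windows was under 50 bp and no gap there was 100 bp or less, so those settings left all 30 differences each unchanged. A count of 0 higher cannot rise at 40 points, and a count of 3 in place of 2 was scored as the same. These totals are therefore no measure of how firm the calls are. Called lower in the 500 bp window was 1 gene with the 250 bp window (CLB1), 1 with stopped windows (CLB2) and 0 at 40 points. Of all coding genes 17.7%, 18.6% and 9.63% were called lower in these settings. At 40 points 1 gene was lower in the 1000 bp window (CLB1) and 1 in the coding body (SIC1), where 5.75% and 5.03% of all genes were. Called higher was 1 gene in the 500 bp window (CLB5) with the 250 bp window, at 10 points and with the top 75%. Of all genes 8.25%, 13.0% and 9.61% were called higher there. In the 1000 bp window 1 gene was higher at 10 points (CLN2) and 1 with the top 75% (CLB5), against 15.5% and 11.3% of all genes. In the body 1 was higher at 10 points (CLB5), against 12.5%. With the top 75%, 1 gene (CLB5) had an upstream hotspot in G170D alone, and the share of all genes was not computed there. No paired analysis was possible because each strain has 1 library and no test was made; no library could be left out for the same reason. Unknown depth limits every statement on absent hotspots.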
